A study of Mus musculus with 18 samples.

Results

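A set of 10 genes, grouped here under the name of adventitial fibroblasts, was followed in whole urinary bladder after chemical injury. Adventitial fibroblasts are the connective tissue cells around vessels and in the outer layers of an organ. The 10 members, Scara5, Pi16, Dpt, Dcn, Lum, Pdgfra, Cd34, Clec3b, Abi3bp and Fndc1, were rows of a gene count table with 46333 named genes and were picked by name because their counts were low at 1 day and higher again at 3 days after injury. Bladders came from female wild-type BALB/c mice of 8 weeks, 18 mice in 6 groups of 3, and each mouse gave 1 RNA-seq library. Cyclophosphamide, an alkylating drug whose metabolite acrolein damages the bladder lining from the urine, was injected into the peritoneal cavity at 150 mg per kg body weight, and control mice received saline. Mice ate a normal diet or, from 1 week before injection, a diet enriched in vitamin A, which the sample labels give as 566081 units of retinyl acetate per kg. The groups were saline at 1 day, cyclophosphamide at 1 day and cyclophosphamide at 3 days, each on both diets. Saline mice were taken at 1 day, so that a comparison of 3 days with saline also differed in the day of sampling. All mice shared strain, sex, age and genotype, and were caged in groups of 3 with no cage given for a mouse.

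Adventitial fibroblasts hold a reserve of matrix-producing cells in many organs. They are known by Pi16, Cd34 and the receptor Pdgfra, and they surround themselves with small proteoglycans that coat collagen fibrils. In the bladder such cells lie mainly around vessels and toward the outer surface, apart from the fibroblasts just under the urothelium. All RNA here was from the whole organ, so fewer cells of a type and less RNA per cell cannot be told apart, and no member's value could be placed in a cell.

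The members are separate genes, spread over chromosomes 1, 5, 9, 10, 14, 16 and 17. Dcn and Lum are close neighbours on chromosome 10, and Dpt and Cd34 are both on chromosome 1. RefSeq promoter windows, taken on the GRCm38.p6 build, were found for 5 of the 10 members. The 250 bases before the annotated start are shown, 5′ to 3′ on the gene's strand, for Pi16 and Fndc1, which had less than 12% of their saline level at 1 day, and for Cd34, which kept more than 50%. Capitals mark the letters of a motif.
Pi16: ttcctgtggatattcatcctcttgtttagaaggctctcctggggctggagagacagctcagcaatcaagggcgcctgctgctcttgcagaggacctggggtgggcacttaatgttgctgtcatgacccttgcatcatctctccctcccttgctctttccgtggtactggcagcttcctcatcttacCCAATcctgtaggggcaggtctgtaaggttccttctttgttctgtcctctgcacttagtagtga
Fndc1: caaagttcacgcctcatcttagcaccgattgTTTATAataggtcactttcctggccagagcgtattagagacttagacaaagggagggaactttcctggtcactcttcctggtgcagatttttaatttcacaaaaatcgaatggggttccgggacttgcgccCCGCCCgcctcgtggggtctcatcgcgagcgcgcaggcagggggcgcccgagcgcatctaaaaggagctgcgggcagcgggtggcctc
Cd34: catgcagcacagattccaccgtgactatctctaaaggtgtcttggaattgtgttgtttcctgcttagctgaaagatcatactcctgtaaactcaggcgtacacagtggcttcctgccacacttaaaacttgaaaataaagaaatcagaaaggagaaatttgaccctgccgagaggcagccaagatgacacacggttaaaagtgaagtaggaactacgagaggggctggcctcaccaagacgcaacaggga
These windows were at chr17:29318632-29318881, plus strand for Pi16, at chr17:7827303-7827552, minus strand for Fndc1 and at chr1:194938571-194938820, plus strand for Cd34, all on GRCm38.p6. Both strands were searched for 5 motifs. The TATA box was read as TATAAA. The CCAAT box was read as its own letters. The AP-1 site was read as TGANTCA. The TEAD site was read as GGAATG. The GC box was read as GGGCGG. The Pi16 window held 1 CCAAT, the Fndc1 window held 1 TATA box and 1 GC box, both on the opposite strand, and the Cd34 window held none of the 5. Among 32851 promoter windows of the same length, 33.8% held a CCAAT box, 12.4% a TATA box, 6.75% an AP-1 site, 12.6% a TEAD site and 32.7% a GC box. No motif was shared by these 3 windows.

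Libraries held 19554132 to 34598952 counts, and mitochondrial genes took 1.67% to 3.82% of them. Levels are given as CPM, counts relative to the library's total after scaling by TMM, a method that balances libraries on the bulk of their genes. Values stand in the order of replicates 1, 2 and 3, which have no order in time. Some libraries stood apart. Replicate 3 of the vitamin A group at 3 days was the lowest of its group for 10 of 10 members, with a summed member level of 1099 CPM against 2486 and 2659 CPM in the other two. Replicate 1 of the vitamin A group at 1 day was the highest of its group for 10 of 10, with 1014 CPM against 563 and 543 CPM, and replicate 1 of the normal-diet group at 1 day was the lowest for 10 of 10. Replicate 3 of the vitamin A group at 1 day, with that 543 CPM, had the lowest summed member level of all libraries and the highest mitochondrial share, 3.82% against 2.25% and 2.18% in its group. Replicate 2 of the vitamin A group at 3 days gave 14.2% of its counts to short genes, the most of any library, and correlated least with the rest of its group (mean r = 0.969).

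Pi16 encodes a secreted or membrane-anchored peptidase inhibitor used to define the adventitial reserve (Entrez gene 74116, chromosome 17, 29537770 to 29547876 on the plus strand, GRCm39). Its level was 299.7, 257 and 227 CPM in saline mice on the normal diet and 288, 219 and 222 CPM on the vitamin A diet. At 1 day it was 27.3, 29.7 and 35.0 CPM on the normal diet and 48.3, 20.0 and 13.1 CPM on the vitamin A diet. All 6 injured bladders at 1 day lay below all 6 saline bladders. By 3 days the normal-diet values were 54.2, 72.1 and 88.0 CPM and the vitamin A values 86.4, 90.8 and 26.7 CPM, still below every saline library. The mean stood at 11.7% of saline at 1 day and 27.3% at 3 days on the normal diet, and at 11.2% and 28.0% on the vitamin A diet. Pi16 had the lowest share of its saline level at 3 days of the 10 members on both diets, with a log2 difference from saline of -1.87 (SE 0.41) on the normal diet.

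Scara5, a scavenger receptor that takes up ferritin (Entrez gene 71145, chromosome 14, 65903852 to 66002275 on the plus strand), had the lowest share of its saline level at 1 day on the normal diet. Its saline values were 166, 142 and 156 CPM on the normal diet and 132, 136 and 108 CPM on the vitamin A diet. At 1 day they were 6.17, 14.3 and 6.67 CPM and 15.3, 8.57 and 6.46 CPM, and at 3 days 44.6, 61.7 and 74.8 CPM and 75.1, 71.1 and 13.5 CPM. All 6 libraries at 1 day were below all 6 saline libraries, and at 3 days every library was still below saline. On the normal diet the log2 difference from saline was -4.09 (SE 0.51) at 1 day and -1.36 (SE 0.45) at 3 days. The vitamin A library with 13.5 CPM at 3 days lay within the range of the day 1 group on that diet, and without it the mean at 3 days was 58.3% of saline in place of 42.5%.

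Clec3b encodes tetranectin, a secreted protein that binds plasminogen (Entrez gene 21922, chromosome 9, 122980011 to 122986497 on the plus strand). Saline values were 232, 264 and 235 CPM on the normal diet and 277, 242 and 194 CPM on the vitamin A diet. At 1 day they were 33.8, 61.5 and 39.8 CPM and 40.5, 22.2 and 12.7 CPM. No library at 1 day reached a saline value. At 3 days they were 90.3, 141 and 136 CPM on the normal diet and 145, 287 and 38.1 CPM on the vitamin A diet. The vitamin A group at 3 days spanned the range from the day 1 libraries to above its saline group. On the normal diet the mean was 18.5% of saline at 1 day and 50.1% at 3 days.

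Cd34, a surface sialomucin of adventitial fibroblasts that endothelial cells also carry (Entrez gene 12490, chromosome 1, 194621129 to 194643600 on the plus strand), was lowered less. Its saline values were 206, 204 and 174 CPM and 178, 182 and 149 CPM on the normal and vitamin A diets. At 1 day they were 92.0, 136 and 123 CPM and 118, 73.8 and 78.7 CPM, and at 3 days 179, 179.6 and 184 CPM and 176, 158 and 91.6 CPM. The day 1 libraries were below saline on each diet, and those of 3 days on the normal diet lay within the saline range. Cd34 stood at 60.3% of saline at 1 day and 93.1% at 3 days on the normal diet, and at 53.2% and 83.5% on the vitamin A diet. Endothelial markers, which could carry part of the Cd34 signal, summed to 417 to 473 CPM in saline mice and 517 to 704 CPM at 1 day on the normal diet, and to 378 to 504 CPM and 539 to 570 CPM on the vitamin A diet. Of 15 endothelial markers 3 rose and 0 fell at 1 day on the normal diet, where 7.26% of all genes rose and 4.49% fell, and 4 rose and 1 fell (Cldn5) on the vitamin A diet (10.2% and 9.05%). The number falling was 0 without replicate 2 or 3 of the vitamin A group at 1 day or replicate 1 of its saline group, and 2 without replicate 1 of that day 1 group or of the vitamin A group at 3 days. At 3 days the endothelial markers summed to 712 to 869 CPM on the normal and 596 to 742 CPM on the vitamin A diet. Of the 15 markers 10 and 5 were then called higher than saline, where 6.74% and 4.32% of all genes were, and 0 lower. No endothelial marker was at 0 counts in a group, and their part in the Cd34 values was not tested.

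**Figure D1:**
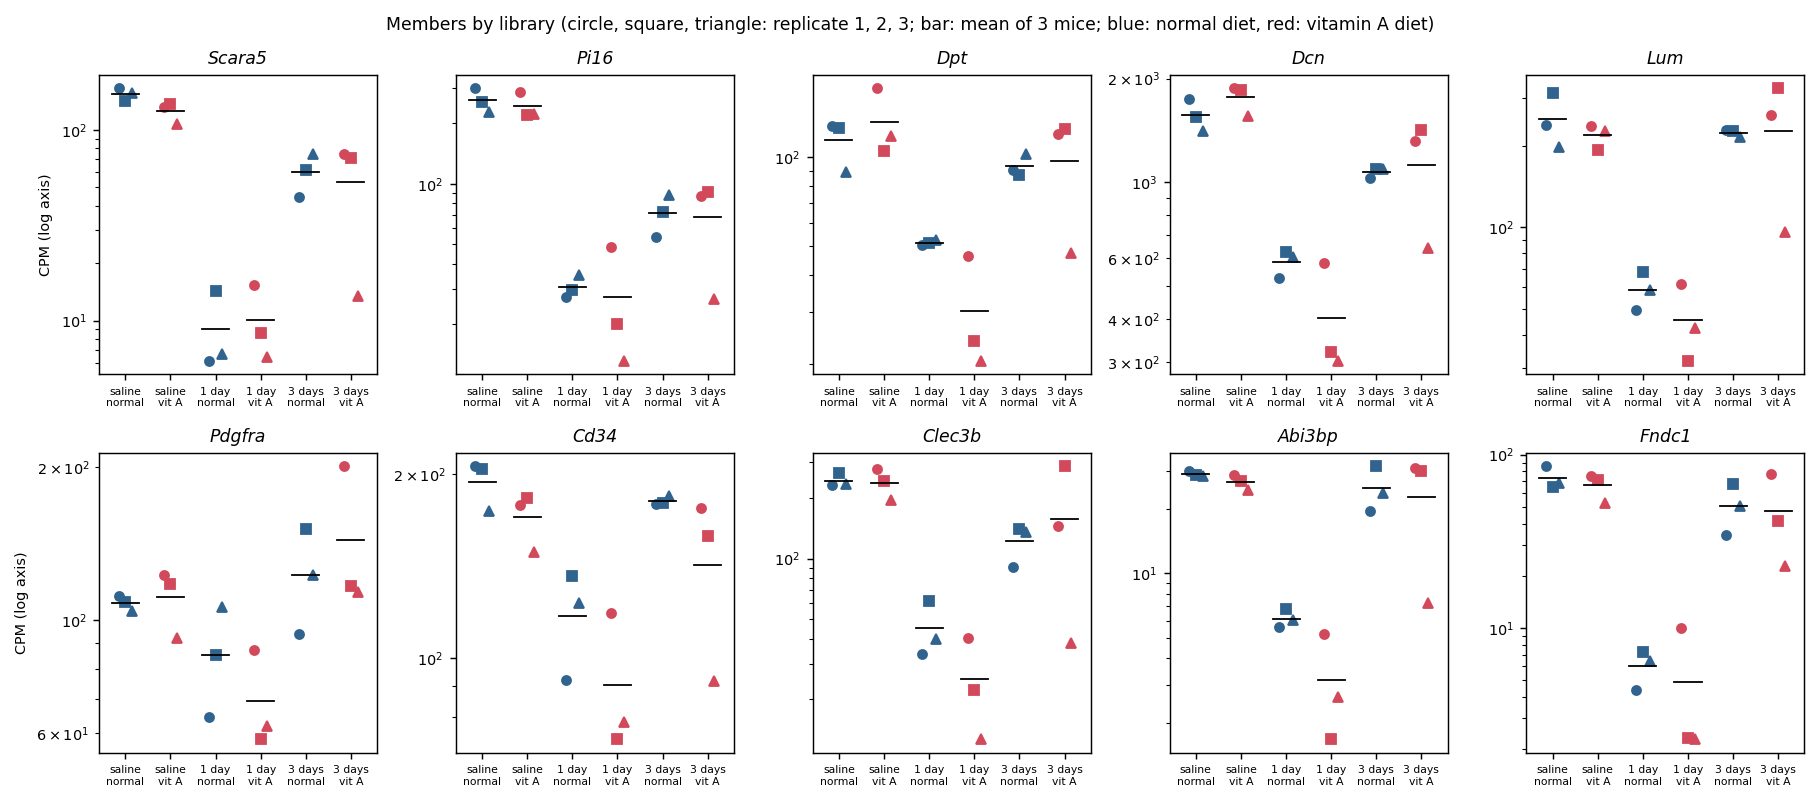
Level of each member in each library, in CPM on a log axis, for the 6 groups. Points are single mice, with circle, square and triangle for replicates 1, 2 and 3, bars are means of 3 mice, and blue and red are the normal and vitamin A diets. For 9 of 10 members on the normal diet and 10 of 10 on the vitamin A diet the day 1 points lie below all saline points, and the triangle of the vitamin A group at 3 days is the lowest of its group in each panel.

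Decorin and lumican, the products of Dcn and Lum, are small leucine-rich proteoglycans that bind collagen fibrils and set their width. Dcn (Entrez gene 13179, chromosome 10, 97315362 to 97354025 on the plus strand) had the highest CPM of the members, at 1746, 1547 and 1407 CPM in saline mice on the normal diet and 1876, 1856 and 1561 CPM on the vitamin A diet. At 1 day its values were 524, 626 and 604 CPM and 581, 321 and 302 CPM, and at 3 days 1024, 1091 and 1089 CPM and 1316, 1413 and 642 CPM. Every injured library was below the saline libraries of its diet at both days. The mean of Dcn was 37.3% of saline at 1 day and 68.2% at 3 days on the normal diet.

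Lum (Entrez gene 17022, chromosome 10, 97401363 to 97408565 on the plus strand) went lower and came closer to its saline level at 3 days. Saline values were 239.8, 313 and 199 CPM and 236, 193 and 227 CPM on the normal and vitamin A diets. At 1 day they were 49.6, 68.1 and 58.4 CPM and 61.7, 32.1 and 42.5 CPM. At 3 days they were 229, 226 and 216 CPM and 259.8, 327 and 95.8 CPM, and the 3 normal-diet libraries all lay within the saline range. Its share of saline on the normal diet was 23.4% at 1 day and 89.4% at 3 days. On the vitamin A diet the mean at 3 days was 104% of saline, or 134% without replicate 3.

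Dermatopontin, the product of Dpt, binds decorin and takes part in collagen fibril assembly (Entrez gene 56429, chromosome 1, 164624232 to 164651843 on the plus strand). It had 127, 126 and 88.9 CPM in saline mice on the normal diet and 171, 105 and 118 CPM on the vitamin A diet. At 1 day it had 50.2, 51.2 and 52.2 CPM and 46.2, 23.8 and 20.5 CPM. The 3 vitamin A libraries at 1 day were all below the 3 normal-diet libraries of that day. At 3 days Dpt had 90.1, 87.2 and 102 CPM and 119, 124 and 47.4 CPM, overlapping saline on both diets. Its share of saline at 1 day was 45.0% on the normal diet and 23.0% on the vitamin A diet.

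Abi3bp and Fndc1 encode extracellular matrix proteins with fibronectin type III domains. Abi3bp (Entrez gene 320712, chromosome 16, 56298179 to 56510498 on the plus strand) was at 30.0, 28.7 and 28.4 CPM in saline mice on the normal diet and 28.7, 26.8 and 24.5 CPM on the vitamin A diet. At 1 day it was at 5.59, 6.78 and 6.05 CPM and 5.22, 1.68 and 2.63 CPM, and at 3 days at 19.6, 31.5 and 23.7 CPM and 31.0, 29.9 and 7.23 CPM. The day 1 vitamin A libraries were again below all normal-diet libraries of that day. Its mean stood at 21.1% and 85.8% of saline at 1 and 3 days on the normal diet.

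Fndc1 (Entrez gene 68655, chromosome 17, 7957401 to 8046159 on the minus strand) had the largest log2 difference between 1 and 3 days of any member, 3.07 (SE 0.49) on the normal diet and 3.26 (SE 0.50) on the vitamin A diet. Its saline values were 85.4, 64.9 and 68.9 CPM and 75.3, 71.4 and 52.4 CPM on the normal and vitamin A diets. At 1 day they were 4.38, 7.26 and 6.42 CPM and 10.01, 2.31 and 2.29 CPM. At 3 days they were 34.2, 67.4 and 50.6 CPM and 77.1, 41.3 and 22.8 CPM. No library at 1 day reached any library at 3 days, on either diet. The mean was 8.24% of saline at 1 day and 69.5% at 3 days on the normal diet.

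Pdgfra, the receptor tyrosine kinase through which platelet-derived growth factors act on fibroblasts (Entrez gene 18595, chromosome 5, 75311988 to 75358867 on the plus strand), had the smallest log2 difference from saline at 1 day among the members. It had 111, 108 and 104 CPM in saline mice on the normal diet and 123, 118 and 92.5 CPM on the vitamin A diet. At 1 day it had 64.4, 85.3 and 106 CPM and 87.4, 58.4 and 61.9 CPM, and at 3 days 94.0, 151 and 123 CPM and 201, 117 and 114 CPM. On the normal diet the day 1 libraries overlapped both the saline and the day 3 libraries, which was so for no other member. The log2 difference of 1 day from saline was -0.34 (SE 0.23) on the normal diet and -0.68 (SE 0.23) on the vitamin A diet.

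The values that chose the members thus ran from -4.09 (Scara5) to -0.34 (Pdgfra) in log2 for 1 day against saline on the normal diet, with a median of -2.17, and from -3.76 (Fndc1) to -0.68 (Pdgfra) on the vitamin A diet, with a median of -2.66. Libraries at 1 day lay wholly below saline for 9 of 10 members on the normal diet, where 18.6% of all 19323 genes tested did so, and for 10 of 10 on the vitamin A diet, where 19.6% did. Libraries at 3 days lay wholly above those at 1 day for 9 of 10 members on the normal diet (11.9% of all genes) and 6 of 10 on the vitamin A diet (7.81%). The exceptions on the vitamin A diet were Scara5, Pi16, Cd34 and Clec3b. In each of them the overlap was only between replicate 3 of the day 3 group and replicate 1 of the day 1 group. The median log2 difference of 3 days from 1 day was 1.33 on the normal diet and 2.00 on the vitamin A diet. These contrasts and those with saline at 3 days are the ones the choice of members rests on, so they are given as a description with no test, and comparisons that have a group in common share its libraries.

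The members did not come back to saline in step. At 3 days on the normal diet Scara5 (39.1% of saline), Pi16 (27.3%), Clec3b (50.1%) and Dcn (68.2%) were below every saline library, 4 of 10 members where 18% of all genes were lower without overlap. Fndc1 (69.5%), Dpt (81.9%), Abi3bp (85.8%), Lum (89.4%), Cd34 (93.1%) and Pdgfra (114%) overlapped saline. On the vitamin A diet Scara5 (42.5%), Pi16 (28.0%) and Dcn (63.7%) were below every saline library, 3 of 10 members where 10.2% of all genes were. The order of the members was alike at the low end on both diets, Pi16 then Scara5, and Lum and Pdgfra were at 104% and 129% on the vitamin A diet. Without replicate 3 of that group, the vitamin A shares at 3 days were 36.5% for Pi16, 58.3% for Scara5, 77.3% for Dcn, 89.2% for Fndc1, 90.8% for Clec3b and 143% for Pdgfra, and the median log2 difference from saline was -0.13 in place of -0.47.

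**Figure D2:**
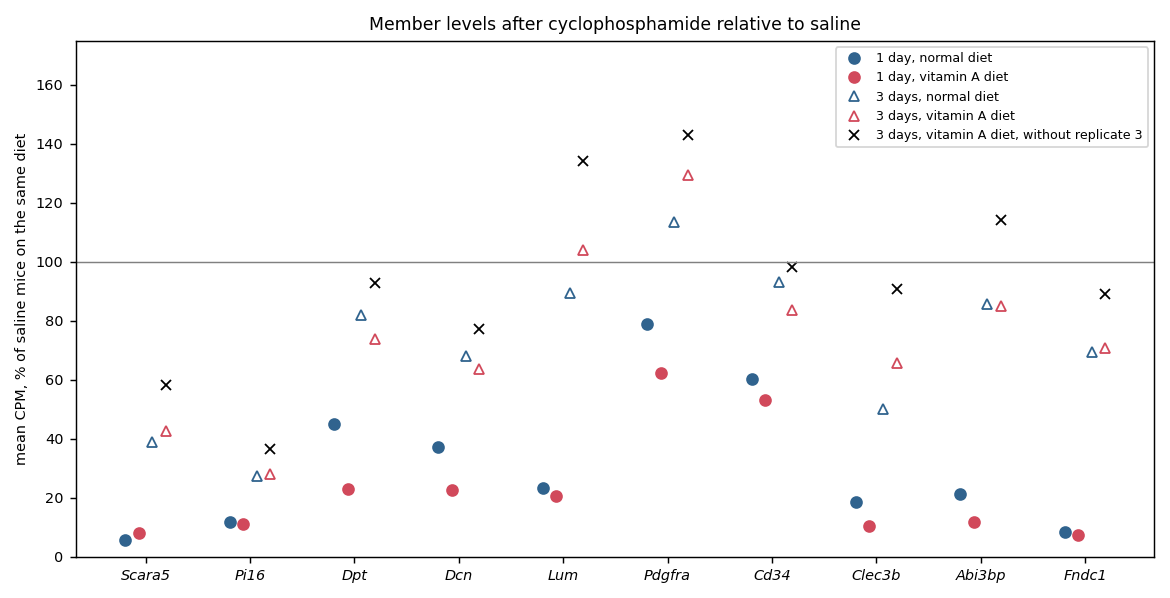
Mean CPM of each member after cyclophosphamide as a percent of saline mice on the same diet, with 3 mice per group. Filled circles are 1 day, open triangles 3 days, blue the normal and red the vitamin A diet, and crosses the vitamin A group at 3 days without its replicate 3. Every circle lies under the line at 100%, and Pi16 and Scara5 have the lowest triangles.

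Diet was not used to choose the members, and each was tested for it with edgeR's quasi-likelihood test, with p-values adjusted by Benjamini and Hochberg over all 19323 genes and a threshold of 0.05. In saline mice 0 of 10 members passed (0.0104% of all genes did), and 0 of 10 had an unadjusted p under 0.05 (3.78% of all genes). Scara5 was wholly lower on the vitamin A diet, 1 of 10 members where 7.59% of all genes were, and the authors' deposited table for saline mice held it at -0.31 (adjusted p = 0.209). The log2 difference of the vitamin A from the normal diet ran from -0.30 (95% interval -1.24 to 0.64) for Scara5 to 0.21 (95% interval -0.43 to 0.85) for Dpt. At 3 days 0 of 10 passed (0.00518% of all genes), again with 0 of 10 at an unadjusted p under 0.05 (3.76%). Cd34 was wholly lower on the vitamin A diet there, 1 of 10 members where 3.78% of all genes were. The values at 3 days ran from -0.35 (95% interval -0.79 to 0.09) for Cd34 to 0.36 (95% interval -0.68 to 1.40) for Clec3b. Without replicate 3 of the vitamin A group at 3 days the members' median there was 0.33 in place of -0.02, Clec3b was at 0.82 (95% interval 0.07 to 1.57, edgeR adjusted p = 0.569), Cd34 at -0.12, and Scara5, Pi16, Abi3bp and Fndc1 turned from below to above 0, to 0.27, 0.31, 0.29 and 0.22. No member passed in that fit. The library left out was the lowest of its group for all members, so the upward shift follows from leaving it out. Without replicate 1 or 2 of the same group the median was -0.20 or -0.34. Several of the intervals from all 18 libraries reach past 0.5 on the log2 scale in both directions. With 3 mice a group they do not exclude a diet difference of that size there.

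At 1 day most members had lower levels on the vitamin A diet, and none passed the test. With edgeR 0 of 10 had an adjusted p under 0.05, where 0.466% of all genes did, and 3 of 10 had an unadjusted p under 0.05, as did 11.1% of all genes. The log2 differences were below 0 in 9 of 10 members, with a median of -0.37 against -0.01 over all genes. In the same comparison 15 of 28 other adventitial fibroblast markers (median 0.08) and 17 of 28 pan-fibroblast markers (0.04) were above 0. So were 8 of 15 subepithelial and Col15a1 fibroblast markers (0.04) and 12 of 18 activated fibroblast markers (0.28). Of 14 other small leucine-rich proteoglycans 10 were below 0 (-0.32). Several marker lists of other cells leaned away from 0 in this comparison, and their part in the members' values was not tested. In saline mice 11 of 13 adipocyte markers were above 0 (median 2.33), where the members' median was -0.11. The adipocyte sums of saline mice overlapped, at 819 to 975 CPM on the normal diet and 1414.5, 838 and 926 CPM in vitamin A replicates 1, 2 and 3. At 1 day the log2 difference was above 0 for 13 of 13 adipocyte markers, with a median of 1.08. Their sums were 651 to 811 CPM on the normal and 811 to 2106 CPM on the vitamin A diet. The log2 difference was also above 0 for 6 of 6 neutrophil markers that could be tested (1.49). It was below 0 for 8 of 8 lymphocyte markers (-1.79), whose sums were 1.40 to 12.0 and 0 to 2.82 CPM, and for 6 of 7 mesothelial markers (-0.51). None of the adipocyte, neutrophil, lymphocyte and mesothelial markers passed the test. Abi3bp was at -0.94 (95% interval -1.83 to -0.06) with an adjusted p of 0.408 in edgeR, Clec3b at -0.84 (95% interval -1.91 to 0.23) with 0.592, Dpt at -0.76 (95% interval -1.41 to -0.11) with 0.341 and Dcn at -0.54 (95% interval -1.08 to -0.01) with 0.441. The vitamin A libraries were wholly below the normal-diet libraries for Dpt and Abi3bp, 2 of 10 members where 8.63% of all genes were. Scara5, at 0.16, was the member above 0. Without replicate 1 of the vitamin A group at 1 day, the library with the highest member levels of its group, the median was -0.90 and the edgeR adjusted p of Dpt was 0.0596. That library was singled out by its member levels, so the further drop follows from leaving it out and is given as a description. The authors' deposited table for this comparison, which lists genes with an unadjusted p under 0.05, held Dpt at -0.77 (adjusted p = 0.0953), Dcn at -0.54 (0.195) and Abi3bp at -0.95 (0.380), turned here to vitamin A over normal diet.

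**Figure D3:**
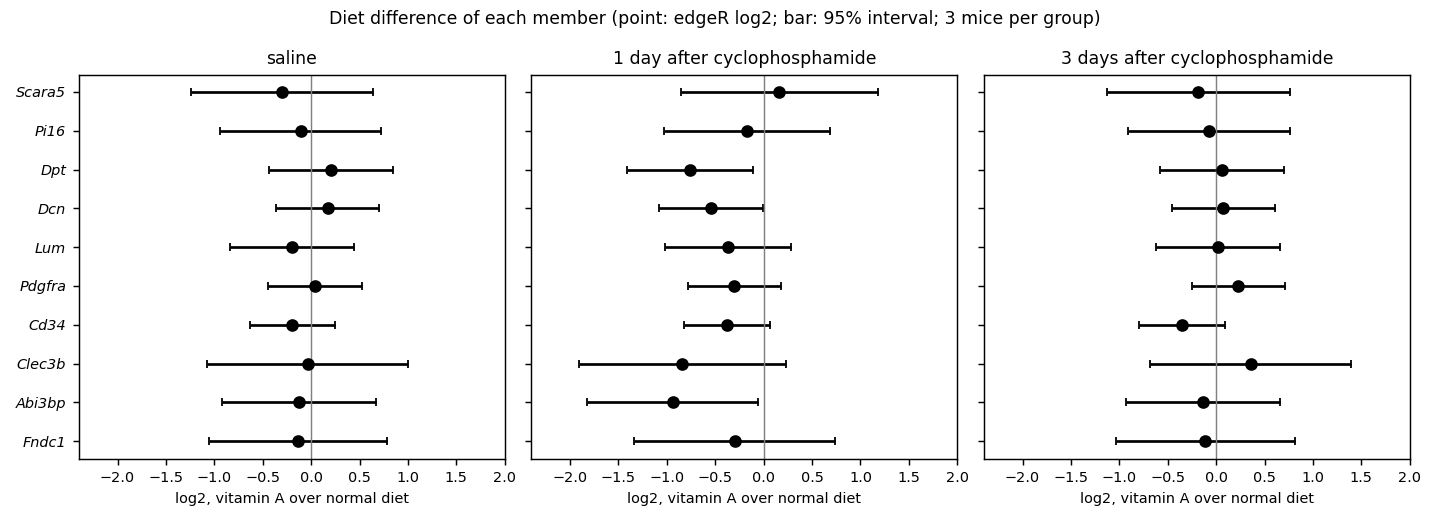
Log2 difference of the vitamin A from the normal diet for each member in saline mice and at 1 and 3 days after cyclophosphamide. Points are edgeR estimates from 3 mice per group and bars are 95% intervals. The intervals of Dpt, Dcn and Abi3bp at 1 day leave out 0 and all others hold it, and no member passed the adjusted test.

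Whether the differences over time differed between diets was tested as an interaction. For 1 day against saline 0 of 10 members passed (0% of all genes did), and 1 of 10, Dpt, had an unadjusted p under 0.05 (7.79% of all genes). For Dpt the difference between diets was -0.97 (95% interval -1.88 to -0.06) in log2, with an edgeR adjusted p of 0.600, and for Dcn -0.71 (95% interval -1.47 to 0.04) with 0.665. For 3 days against 1 day 0 of 10 passed (0% of all genes) and 0 of 10 had an unadjusted p under 0.05 (8.96%). There the differences were above 0 in 9 of 10 members, from 0.02 for Cd34 to 1.196 (95% interval -0.30 to 2.69) for Clec3b, with Scara5 at -0.34 and a median of 0.46. By the same measure 12 of 28 other adventitial fibroblast markers (median -0.10) and 8 of 28 pan-fibroblast markers (-0.18) were above 0. So were 5 of 15 subepithelial and Col15a1 fibroblast markers (-0.17) and 5 of 18 activated fibroblast markers (-0.60). Of 14 other small leucine-rich proteoglycans 10 were above 0 (0.41). Without replicate 3 of the vitamin A group at 3 days, the library lowest in all members, all 10 members were above 0 and their median was 0.72. The 95% intervals of 5 members then left out 0, with Clec3b at 1.66 (0.63 to 2.68), Abi3bp at 1.23 (0.41 to 2.05), Dpt at 1.15 (0.41 to 1.89), Dcn at 0.90 (0.27 to 1.53) and Lum at 0.76 (0.13 to 1.40), while the adjusted p of these 5 in edgeR was 0.193 to 0.315. Scara5 was at 0.12 and Cd34 at 0.26 in that fit. The library left out was singled out by its low member levels, so the upward shift follows from that choice. The intervals of that fit are therefore given as a description. The members' median was 0.90 without replicate 1 of the vitamin A group at 1 day, 0.31 without replicate 2 of that group and 0.25 without replicate 1 of the vitamin A group at 3 days.

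Levels between genes can be compared per length, which the deposited FPKM values (fragments scaled for gene length and depth) allow. In saline mice on the normal diet Dcn led with 738 ± 80.4 FPKM (mean ± SD, n = 3), followed by Clec3b at 244 ± 16.8, Lum at 119.6 ± 27.2 and Pi16 at 111 ± 15.5 FPKM. Lum and Pi16 overlapped within their spread. Cd34 followed at 73.5 ± 6.63 FPKM and Dpt at 65.8 ± 12.3, again within their spread of each other, then Scara5 at 27.2 ± 2.19 FPKM. Pdgfra at 11.5 ± 0.388 and Fndc1 at 9.64 ± 1.45 FPKM were close, and Abi3bp was the lowest at 4.58 ± 0.136 FPKM.

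Other markers of adventitial fibroblasts did not all follow the members. Of 28 such markers 7 fell and 3 rose at 1 day on the normal diet, and 8 fell and 4 rose on the vitamin A diet, against 4.49% of all genes falling and 7.26% rising on the normal diet and 9.05% and 10.2% on the vitamin A diet. Their median log2 difference was -0.34 and -0.55, with all genes at 0.00 and -0.01. Pcolce2, which helps procollagen processing, fell by 2.58 on the log2 scale (SE 0.46, edgeR adjusted p = 0.00123) and Mfap5, a microfibril protein, by 1.98 (1.1e-04). Procr, the endothelial protein C receptor that also marks some fibroblasts, rose by 1.51 (SE 0.21, adjusted p = 1.1e-04), Anxa3, an annexin, by 1.42 and Ly6a, the surface protein Sca-1, by 1.25. From 1 to 3 days 4 rose and 0 fell on the normal diet (1.22% of all genes rose and 0.217% fell), and 4 rose and 1 fell on the vitamin A diet (2.55% and 1.69%). The count that fell at 1 day on the normal diet was 3 without either replicate 1 or replicate 3 of that day's group. On the vitamin A diet 8 rose from 1 to 3 days without replicate 3 of the day 3 group, and at 1 day 5 fell without replicate 2 or 3 of the day 1 group or replicate 1 of the saline group. On the normal diet the number that rose over the same days was 2 without replicate 1 of the day 1 group. In a fit of only the 2 groups compared 11 fell at 1 day on the normal diet.

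Some of the genes of fibroblasts in general passed as lower at 1 day and as higher at 3 days than at 1 day. Of 28 pan-fibroblast markers 13 fell and 0 rose at 1 day on each diet (4.49% of all genes fell on the normal and 9.05% on the vitamin A diet), and 17 rose and 0 fell from 1 to 3 days on each diet (1.22% and 2.55% of all genes rose). Median log2 differences were -0.94 and -0.83 at 1 day and 1.22 and 1.06 from 1 to 3 days, on the normal and vitamin A diets. The fall and the rise were thus not particular to adventitial markers. Col14a1, a collagen on the surface of fibrils, fell by 4.15 on the log2 scale on the normal diet (SE 0.42, edgeR adjusted p = 8.9e-06), from 278 ± 14.5 to 15.6 ± 4.16 CPM (mean ± SD, n = 3), and rose to 153 ± 36.6 CPM at 3 days. Fbln1, a fibulin of elastic and basement membrane matrix, fell by 2.56 and Htra3, a secreted serine protease, by 2.16. The summed level of the list was 12469 to 13421 CPM in saline mice, 5250 to 7022 CPM at 1 day and 13556 to 19356 CPM at 3 days on the normal diet. The members' sum was 2688 to 3243, 858 to 1087 and 1859 to 2109 CPM in the same groups, with Dcn the largest term. At 3 days it was below saline where the sum of the longer list was above it. Taken singly, 17 markers of the longer list were above and 11 below saline there. Of these 8 were called higher (6.74% of all genes) and 3 lower (3.3%). On the vitamin A diet the sum of the longer list at 3 days, 10263 to 19967 CPM, overlapped the 11506 to 13974 CPM of saline mice. The count that rose from 1 to 3 days was 10 on the normal diet without replicate 1 of its day 1 group and 11 on the vitamin A diet without replicate 2 of its day 1 group. In a fit of only the 2 groups compared, 24 fell at 1 day on the normal diet, and from 1 to 3 days on the vitamin A diet 0 rose, as did 0 of the other adventitial, subepithelial and proteoglycan lists and 1 of the fibril partners.

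Markers of the fibroblasts under the urothelium and of those with Col15a1 showed a like count, with 6 of 15 falling and 1 rising at 1 day on the normal diet, and 9 falling and 2 rising on the vitamin A diet. Over all genes 4.49% fell and 7.26% rose at 1 day on the normal diet, and 9.05% and 10.2% on the vitamin A diet. From 1 to 3 days 8 of 15 rose on the normal and 7 on the vitamin A diet (1.22% and 2.55% of all genes), and 0 fell. Cxcl12, a chemokine of stromal cells, fell by 2.47 on the log2 scale at 1 day on the normal diet (SE 0.29, edgeR adjusted p = 2.6e-05), Smoc2, a calcium-binding matrix protein, by 2.08 and Col15a1, a basement membrane zone collagen, by 1.54. Wif1, a secreted inhibitor of Wnt proteins, rose by 1.64 (SE 0.42, adjusted p = 0.0164), a call lost without replicate 3 of the day 1 group or replicate 1 or 3 of the saline group. The 2 that rose at 1 day on the vitamin A diet were 0 without replicate 2 of its day 1 group or replicate 3 of its saline group. The counts from 1 to 3 days were as low as 2 on the normal diet, without replicate 1 of its day 1 group, and 3 on the vitamin A diet, without replicate 1 of its day 3 group.

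The other small leucine-rich proteoglycans are the family of Dcn and Lum. Of 14 that could be tested, 5 fell and 0 rose at 1 day on the normal diet, and 7 fell and 0 rose on the vitamin A diet. Their median log2 differences were -0.89 and -1.31. Over all genes 4.49% fell on the normal and 9.05% on the vitamin A diet. Ogn (osteoglycin) had log2 differences of -1.85 and -2.74 on the normal and vitamin A diets (edgeR adjusted p = 4.7e-04 and 7.8e-06), Ecm2 of -2.28 and -2.72, Podn (podocan) of -1.54 and -1.58, and Fmod (fibromodulin) of -1.76 and -2.76. All 4 passed on both diets, and Fmod lost its call on the normal diet without any 1 library of the day 1 group or without replicate 1 or 2 of the saline group, and with no filter on low counts (adjusted p = 0.104). Ogn went from 111 ± 19.3 CPM in saline mice to 30.6 ± 2.91 at 1 day and 48.8 ± 11.04 at 3 days on the normal diet (mean ± SD, n = 3). It was the 1 gene of the list called lower than saline at 3 days there (log2 -1.18 (SE 0.29, adjusted p = 0.0148), where 3.3% of all genes were), a call lost without replicate 1 or 3 of the day 3 group or replicate 1 of the saline group, and with no filter (0.0744). From 1 to 3 days 2 rose on the normal diet (Bgn and Podn) and 5 on the vitamin A diet (Aspn, Ecm2, Fmod, Ogn and Podn). Over all genes 1.22% and 2.55% rose. The count that fell at 1 day on the normal diet was 3 without replicate 1 or 3 of that day's group or replicate 1 or 2 of its saline group, and 9 in a fit of only the 2 groups compared. From 1 to 3 days 0 rose on the normal diet without replicate 1 or 3 of the day 1 group or replicate 2 or 3 of the day 3 group, and 2 on the vitamin A diet without replicate 2 or 3 of the day 1 group or replicate 1 of the day 3 group.

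Partners in collagen fibril assembly gave 6 of 15 falling and 1 rising at 1 day on each diet. Over all genes 4.49% fell and 7.26% rose on the normal diet, and 9.05% and 10.2% on the vitamin A diet. From 1 to 3 days 7 of the 15 rose on the normal and 5 on the vitamin A diet (1.22% and 2.55% of all genes), with 0 falling. Fbln5, which organises elastic fibres, fell, with log2 differences of -2.31 on the normal and -3.43 on the vitamin A diet (edgeR adjusted p = 1.3e-05 and 4.6e-07), and so did Adamts2, a procollagen peptidase, at -1.84 and -1.51. Thbs1, the matrix protein thrombospondin 1, rose by 0.67 (SE 0.19, adjusted p = 0.0295) on the normal diet. The Thbs1 call was lost without replicate 1 or 3 of the day 1 group or any 1 library of the saline group.

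The ligands of Pdgfra and its co-receptor Pdgfrb gave 1 call on each diet at 1 day, a fall. Over all genes 4.49% fell on the normal and 9.05% on the vitamin A diet. Of the 5 ligand and co-receptor genes Pdgfrb fell at 1 day on the normal diet, by 0.89 on the log2 scale (SE 0.23, edgeR adjusted p = 0.0167). That call was lost without replicate 1 or 2 of that day's group or replicate 1 of its saline group. On the vitamin A diet Pdgfd fell, by 1.33 (SE 0.29, adjusted p = 0.00294). Pdgfa was at 0.27 and 0.20, Pdgfb at 0.05 and 0.41, and Pdgfc at 0.25 and -0.04 in log2 at 1 day on the normal and vitamin A diets, and none of these passed. Between 1 and 3 days 0 of 5 passed on either diet.

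Among genes of activated fibroblasts and myofibroblasts, those that passed against saline were higher after injury. Of 18 measured, 2 rose and 0 fell at 1 day on the normal diet, where 7.26% of all genes rose, 8 rose and 0 fell on the vitamin A diet, where 10.2% did, and 8 and 5 were higher than saline at 3 days on the normal and vitamin A diets, where 6.74% and 4.32% of all genes were. Timp1, an inhibitor of matrix metalloproteinases, rose by 3.36 (SE 0.33, adjusted p = 7.3e-06) in log2 at 1 day on the normal diet and by 3.64 on the vitamin A diet. The count at 1 day on the normal diet was 1 without any 1 library of that day's group or without replicate 1 or 3 of its saline group, 3 without replicate 1 or 3 of the vitamin A group at 1 day, and 6 in a fit of only the 2 groups compared. The summed level of the list, which holds Acta2 and Tagln, genes that smooth muscle also expresses, was lower after injury on the normal diet, at 10486 to 14548 CPM in saline mice, 5779 to 9478 CPM at 1 day and 5503 to 8457 CPM at 3 days. The same groups on the vitamin A diet had 9147 to 14696, 5880 to 10735 and 6606 to 15536 CPM, with overlap. At 3 days on the vitamin A diet the count was 3 without replicate 3 of that group or any 1 of its saline libraries.

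Markers of other cell types shared the organ's RNA with the members, and their part in the members' values was not tested. Smooth muscle markers summed to 19914 to 24169 CPM in saline mice on the normal diet, 9623 to 15745 CPM at 1 day and 6659 to 13788 CPM at 3 days. On each diet 2 of 10 fell and 0 rose at 1 day, where 4.49% (normal diet) and 9.05% (vitamin A diet) of all genes fell. The number of smooth muscle markers falling was 0 on the normal diet without replicate 1 or 2 of the day 1 group, and 4 without replicate 2 of the vitamin A group at 3 days. It was 1 on the vitamin A diet without replicate 2 of its day 1 group or replicate 1 of its saline group. Macrophage markers summed to 503 to 580 CPM in saline mice, 638 to 726 CPM at 1 day and 901 to 1278 CPM at 3 days on the normal diet. Of these, 4 of 12 rose at 1 day and 9 were higher than saline at 3 days (7.26% and 6.74% of all genes). At 1 day on the vitamin A diet 4 rose and 2 fell (Csf1r and Lyz2), where 10.2% and 9.05% of all genes did. The macrophage sum there was 503 to 678 CPM against 525 to 877 CPM in saline mice. Urothelial markers summed to 13439 to 13947 CPM in saline mice, 14486 to 17113 CPM at 1 day and 11493 to 15052 CPM at 3 days on the normal diet. Of 14 such markers 2 rose (Krt19 and Krt5) and 2 fell (Krt20 and Upk2) at 1 day on the normal diet. On the vitamin A diet 6 rose and 6 fell at 1 day, so the sum joins opposite differences. On the normal diet the smooth muscle sum was below saline at both days, while the members' sum was lowest at 1 day. On the vitamin A diet the smooth muscle sum was 9391 to 17732 CPM at 1 day and 9745 to 17579 CPM at 3 days, overlapping the 16978 to 24797 CPM of its saline mice. Adipocyte markers, which track fat around the bladder, ranged from 486 to 975 CPM over the normal-diet libraries. They reached 2106 CPM in replicate 3 of the vitamin A group at 1 day, where 6 of 10 members were the lowest of their group. Replicate 1 of that group had 1168 CPM, with 10 of 10 members the highest, and replicate 2 had 811 CPM, with 4 of 10 the lowest. Replicate 1 of the vitamin A saline group had 1414.5 CPM and the highest summed member level of all libraries, 3384 CPM. Of 13 adipocyte markers 0 rose and 0 fell at 1 day on either diet, and 2 fell on the vitamin A diet without replicate 3 of its day 1 group. None of the smooth muscle, macrophage or adipocyte markers was at 0 counts in a group.

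**Figure D4:**
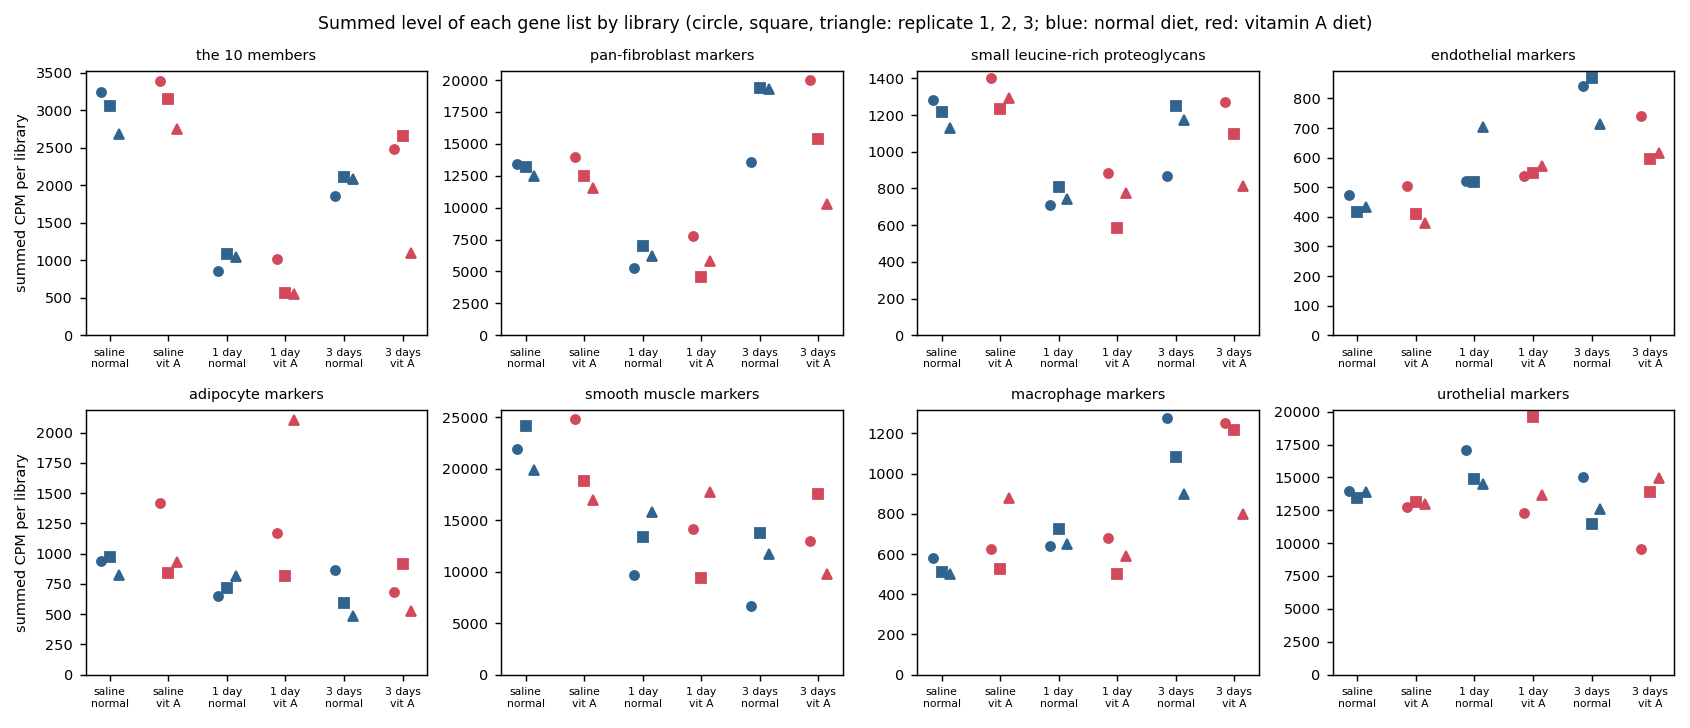
Summed CPM of the 10 members and of 7 other gene lists in each library, on linear axes from 0. Points are single mice, with circle, square and triangle for replicates 1, 2 and 3, and blue and red for the normal and vitamin A diets. The members' sum is 2688 to 3243 CPM in saline mice and 858 to 1087 CPM at 1 day on the normal diet, while the smooth muscle sum at 3 days is below saline on the normal diet and overlaps it on the vitamin A diet.

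The members were not equally alike. The difference from the median member profile, as the root mean square over 18 libraries of log2(CPM + 0.5) centred on each gene's mean, was 0.272 for Lum, 0.283 for Dcn, 0.307 for Abi3bp and 0.340 for Dpt, and 0.792 for Pdgfra, 0.737 for Scara5 and 0.711 for Fndc1, against a median of 1.09 over 14318 genes. Scara5 and Fndc1 went further down than the median, and Pdgfra less far. The genes outside the members with the nearest profile were Smoc2 (0.261), Efemp1, a fibulin (0.266), Olfml1 (0.268), Cntn1 (0.282) and Glt8d2 (0.293), then Fbln5, Pid1, Mfap5, Tmem100 and Cygb, up to 0.350. Efemp1 was at 79.0 ± 6.63 CPM in saline mice, 29.5 ± 3.00 at 1 day and 66.0 ± 10.6 CPM at 3 days on the normal diet (mean ± SD, n = 3). Taken singly, Dpt was nearest to Dcn (0.197), Pi16 to Pcolce2 (0.440), Scara5 to the neuropeptide Y receptor gene Npy1r (0.385), Fndc1 to Col14a1 (0.321), and Pdgfra to the collagen receptor gene Antxr1 (0.210). The libraries and their scaling are common to all these profiles, so likeness is a description.

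A diet difference that passed the test was found in the longer lists for Cd55 and Cd14, neither of them a member. They were 1 of 28 other adventitial markers and 1 of 12 macrophage markers, both at 1 day, where 0.466% of all genes passed. The other lists had no diet call. Cd55, a complement regulator that also marks some adventitial fibroblasts, was at 160.4 ± 22.1 CPM on the vitamin A diet and 94.1 ± 16.6 CPM on the normal diet at 1 day (mean ± SD, n = 3), a log2 difference of 0.77 (SE 0.14, adjusted p = 0.0243) in edgeR. On the normal diet it was at 118 ± 11.3 CPM in saline mice and 149.7 ± 13.5 CPM at 3 days, and it passed as higher at 3 days than at 1 day (log2 0.67, adjusted p = 0.0212), but its value at 1 day did not pass against saline (-0.33, adjusted p = 0.149). That 3 day call was lost without replicate 1 or 3 of the day 1 group or replicate 2 or 3 of the day 3 group. The diet call was lost without replicate 1 (adjusted p = 0.134) or 3 (0.109) of the normal-diet group, or replicate 2 (0.0646) or 3 (0.0950) of the vitamin A group. Cd14, a co-receptor for bacterial lipopolysaccharide of macrophages, was at 102 ± 24.6 and 49.8 ± 2.35 CPM, a difference of 1.03 (SE 0.21, adjusted p = 0.0352). That call was lost without any 1 normal-diet library of the day or replicate 2 or 3 of the vitamin A group, and without replicate 2 or 3 of the normal-diet saline group, with adjusted p from 0.0540 to 0.141. In a fit of only the 2 groups compared the adjusted p was 0.176 for Cd55 and 0.122 for Cd14, and Cd14 had 0.0613 with the replicate number as a block.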

How the data were processed

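Whole-bladder RNA was sequenced from 18 mice. The submitters' processing notes name GRCm39, DESeq2 1.20.0, featureCounts 1.5.0-p3 and HISAT2 2.0.5; how each was used, and with what strand setting, was not given in the sources at hand. The deposited gene counts were whole numbers from the authors, and the authors' FPKM values were used for levels between genes. The authors' deposited diet tables hold log2 fold changes and p-values for genes with an unadjusted p under 0.05. Of 60750 features, 14417 without a gene name (0.474% to 0.810% of counts) were left out. Counts were fitted with edgeR 4.0.16 (limma 3.58.1, R 4.3.3), robust quasi-likelihood, TMM scaling and filterByExpr, with a mean for each of 6 groups over 18 libraries and 12 residual degrees of freedom; 19323 genes were tested. SE is the log2 difference over the root of F. The script was tested on simulated data. Members and lists were chosen with earlier results of these data known. Genes named outside the members were, from each list, up to 3 rising and 3 falling genes with the largest change at 1 day on the normal diet, those with a diet call, all platelet-derived growth factors and proteoglycans of the family, and the 10 genes nearest in profile, plus the nearest to each member. Alternatives were DESeq2 1.42.0, RLE scaling, no filter, unnamed features kept, groups compared only, a replicate block and leaving out each library.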

Additional observations from a re-analysis of the deposited data

How the results depend on the processing

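No member passed the diet tests or interactions under any setting tried, and no called value changed sign. Counts of genes called over the whole table did depend on the setting. With DESeq2 they were 15 for diet in saline mice, 501 for diet at 1 day, 11 for diet at 3 days, 120 and 88 for the interactions at 1 day and with time, 658 and 1726 for 3 days against 1 day on the normal and vitamin A diets, and 1766 for 3 days against saline on the vitamin A diet. With only the groups compared they were 35 and 2 for diet in saline mice and at 1 day, 19 for the interaction at 1 day, 4463 for 1 day against saline and 3710 for 3 days against saline on the normal diet, 708 and 17 for 3 days against 1 day on the normal and vitamin A diets, and 499 for 3 days against saline on the vitamin A diet. With no filter they were 7 and 0 for diet in saline mice and at 3 days, and 25 and 9 for the interactions at 1 day and with time. The cause was not tested.

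Leaving out 1 library gave 1239 to 3279 and 2474 to 4761 genes for 1 day against saline on the normal and vitamin A diets, 70 to 395 and 316 to 1335 for 3 days against 1 day, 961 to 2546 and 671 to 1664 for 3 days against saline, 0 to 5, 0 to 305 and 0 to 1 for diet in saline mice and at 1 and 3 days, and 0 to 39 and 0 to 25 for the interactions. The members' median log2 was -0.90 to -0.22 for diet at 1 day, -0.34 to 0.33 for diet at 3 days, -0.94 to -0.15 for the interaction at 1 day and 0.25 to 0.90 for the interaction with time. Among the members Clec3b had the largest SE for diet in each of the 3 groups.

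Replicate numbers showed no sign of pairing the samples. Correlations of deviations were above 0.1 for 5 of 45 same-numbered pairs and for 17 of 90 pairs of different number. Of 18 libraries 7 were closest to their own number. With the replicate block 0 genes were called for diet at 3 days, in place of 1. Member shares of saline moved by little on raw library totals or on deposited FPKM, and 1 of the counts without overlap changed by more than 1.5 times, from 1 to 2 members lower on the vitamin A diet in saline mice on raw totals, an alternative added after seeing the data.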
